A study of Mus musculus with 10 samples.

Results

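Stathmins and neurofilament subunits are proteins of the neuronal cytoskeleton, and their genes were followed here in the forebrain of newborn mice that lacked 2 neuronal RNA-binding proteins. The members were taken by gene symbol: Stmn1 to Stmn4, Nefl, Nefm, Nefh and Ina, and the growth-cone proteins Basp1 and Marcks. Of these 10 genes, 8 had a probe set with exactly 1 symbol, among 13534 genes with such a probe set. Basp1 and Marcks are not analysed here, so no growth-cone protein of the original list is described. Stmn1 had 2 probe sets and each other gene had 1, which gave 9 probe sets in all. The genes were chosen by name and not by their values, although earlier results of these arrays were known.

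Each sample was the forebrain of 1 pup on postnatal day 0, hybridised to 1 exon array. The wild-type group held 5 pups and the double knockout group held 5 pups of the genotype Elavl3-/-;Elavl4-/-, all of a mixed C57BL/6 and CD-1 background. The animals are described as littermates, but the labels do not say which pups belong together, so the groups were compared without pairs. No Cre or other transgene is named in the labels. All values below are log2 expression values as the authors deposited them, so a difference of 1 is a doubling, and levels of different probe sets are not set against each other.

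Stathmins bind tubulin dimers and promote the shrinkage of microtubules. Stmn1 is cytosolic and abundant in dividing and newborn cells, whereas Stmn2 (SCG10), Stmn3 (SCLIP) and Stmn4 (RB3) carry a membrane anchor that places them on the Golgi and in growth cones of neurons. Neurofilaments are the intermediate filaments of axons. Nefl, Nefm, Nefh and Ina (internexin alpha) encode their subunits, which assemble together, and in rodents Ina is expressed early whereas Nefh rises late. Elavl3 and Elavl4 encode ELAV-like proteins, which bind AU-rich and U-rich stretches of messenger RNAs and affect their stability, splicing and translation.

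The arrays first had to show the genotype. Elavl3 read 11.28, 11.16, 10.52, 11.21 and 11.39 in wild-type replicates 1 to 5 and 5.53, 5.89, 5.76, 6.02 and 6.94 in the double knockout. Elavl4 read 7.67, 7.42, 7.69, 7.46 and 7.67 in wild-type and 6.49, 6.34, 5.88, 6.44 and 6.16 in the double knockout. For both genes every double knockout array lay under every wild-type array. Array medians ran from 5.05 to 5.24. Wild-type replicate 4 stood apart, since it correlated with the other arrays at 0.933 to 0.946, while all other pairs of arrays correlated at 0.958 or above over probe sets. Of the neuronal markers Rbfox3, Stmn2, Tubb3, Dcx, Syn1 and Eno2, the dimmest was Eno2 at a mean of 7.67, and none of these 6 differed by a call. Stmn2 belongs to this marker list as well as to the members.

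No stathmin or neurofilament gene passed the test between the genotypes. In limma's fit over 65529 probe sets, 0 of the 9 member probe sets had an adjusted p under 0.05, against 0.00763% of all probe sets. At an unadjusted p under 0.05 there was 1 member, Stmn4, which was lower in the double knockout, and 2.66% of all probe sets and 1.63% of those with 1 symbol were lower at that level. All 4 neurofilament genes and 2 of the 4 stathmin genes had a mean under that of wild-type. Over the 8 genes the median difference was -0.13, with a range of -0.27 to 0.06. Over all 13534 genes the median was -0.03 and 60.3% of differences lay below 0. No member had groups that did not overlap, whereas 0.947% of single-symbol probe sets did. The 95% interval of all 8 genes lay within 1.5-fold in either direction, and so did the interval of 91.1% of all genes. In a bulk forebrain sample, fewer cells of a type and less RNA per cell cannot be told apart.

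**Figure D1:**
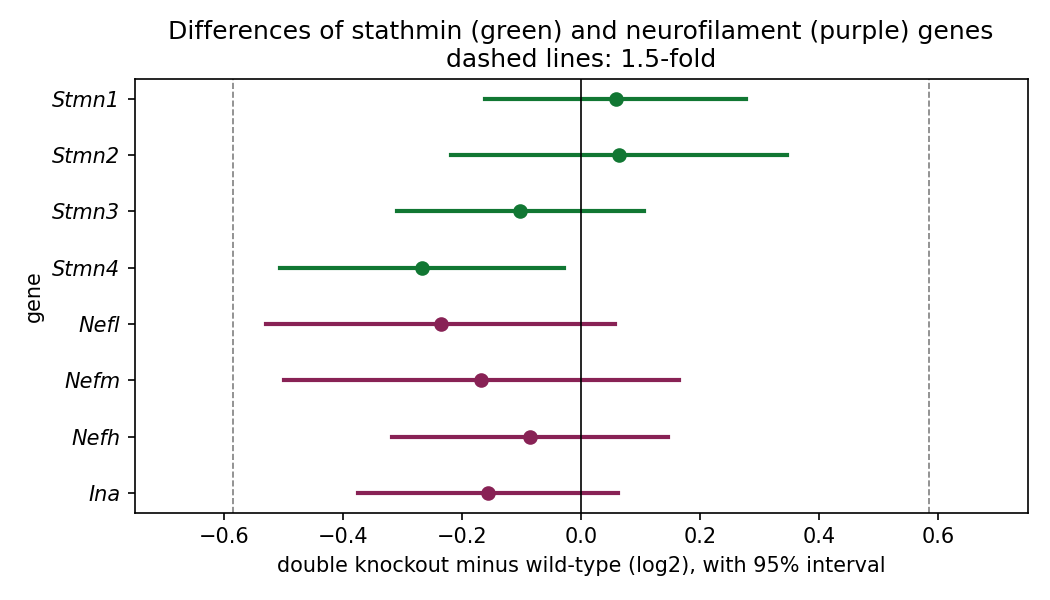
Difference of each gene between double knockout and wild-type forebrain on the log2 scale (x axis), with points for limma's estimate and lines for its 95% interval; green marks stathmins, purple marks neurofilament subunits, and dashed lines mark 1.5-fold. The interval of Stmn4 lies below 0, from -0.51 to -0.03, the other 7 include 0, and none reaches 1.5-fold.

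Among the stathmins, Stmn4 gave the most negative difference. It read 8.13, 8.14, 8.07, 8.05 and 8.34 in wild-type replicates 1 to 5. In the double knockout it read 8.10, 7.77, 7.83, 7.74 and 7.95. Thus 4 of 5 double knockout arrays lay under all wild-type arrays, and double knockout replicate 1 lay among them. The share of all genes with 4 of 5 arrays so placed was not examined. Wild-type arrays averaged 8.15 ± 0.12 and double knockout arrays 7.88 ± 0.15 (SD, n = 5 per genotype). The mean was thus 1.20-fold lower, by -0.27 log2 units with an SE of 0.109 and a 95% interval of -0.51 to -0.03, and limma's adjusted p was 0.789. The unadjusted p was 0.0310 in that fit. No member had an unadjusted p under 0.05 in limma's fit without wild-type replicate 2 or 5, or without double knockout replicate 2, 3 or 4, which is 5 of the 10 omissions. With trend and robust settings in limma, 2 members had an unadjusted p under 0.05. By itself Stmn4 had an exact permutation p of 0.0238, two-sided, where 0.00794 is the smallest that 5 against 5 arrays allow. When single-symbol probe sets were fitted by themselves, Stmn4 had limma's adjusted p = 0.811, and 3.96% of the probe sets in that fit were lower at an unadjusted p under 0.05.

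Stmn2, the neuronal growth-cone stathmin, had a mean slightly above that of wild-type. Its values were 11.53, 11.49, 11.65, 11.15 and 11.77 in wild-type and 11.77, 11.51, 11.47, 11.61 and 11.55 in the double knockout. The groups overlapped almost entirely, and the single low value belonged to wild-type replicate 4. The difference was 0.06 (95% interval -0.22 to 0.35, limma's adjusted p = 0.944), and it was -0.03 without wild-type replicate 4. That interval spans a 1.16-fold fall and a 1.27-fold rise.

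Stmn3, a second membrane-anchored stathmin, ranged from 6.62 to 6.75 in wild-type (median 6.64) and from 6.43 to 6.72 in the double knockout (median 6.52). Of its double knockout arrays 4 of 5 lay under every wild-type array, and replicate 4 lay within the wild-type range. The difference was small, at -0.10 (95% interval -0.31 to 0.11, limma's adjusted p = 0.882), and the exact permutation p was 0.0952.

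Stmn1, the cytosolic stathmin, ranged from 8.32 to 8.49 in wild-type (median 8.44) and from 8.34 to 8.66 in the double knockout (median 8.46). The groups overlapped, with 2 double knockout arrays above all wild-type arrays. Its difference of 0.06 (95% interval -0.16 to 0.28) had limma's adjusted p = 0.936, and the value ran from 0.01 without double knockout replicate 4 to 0.09 without double knockout replicate 1. The second probe set that carries the symbol Stmn1 is uncertain by its place. In identifier order it lies between Brinp1 and Cdk5rap2, while 567 protein-coding genes of the GRCm38.p6 gene table separate Stmn1 from Cdk5rap2. The first probe set lies between Pafah2 and Paqr7, with 0 such genes between either of them and Stmn1. The uncertain probe set was dim, at 3.05 to 3.69 in 4 wild-type arrays, 5.24 in wild-type replicate 4 and 3.16 to 4.00 in the double knockout. It differed by -0.01 with a 95% interval of -0.80 to 0.79, and by 0.37 without wild-type replicate 4, so it set only a wide bound.

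**Figure D2:**
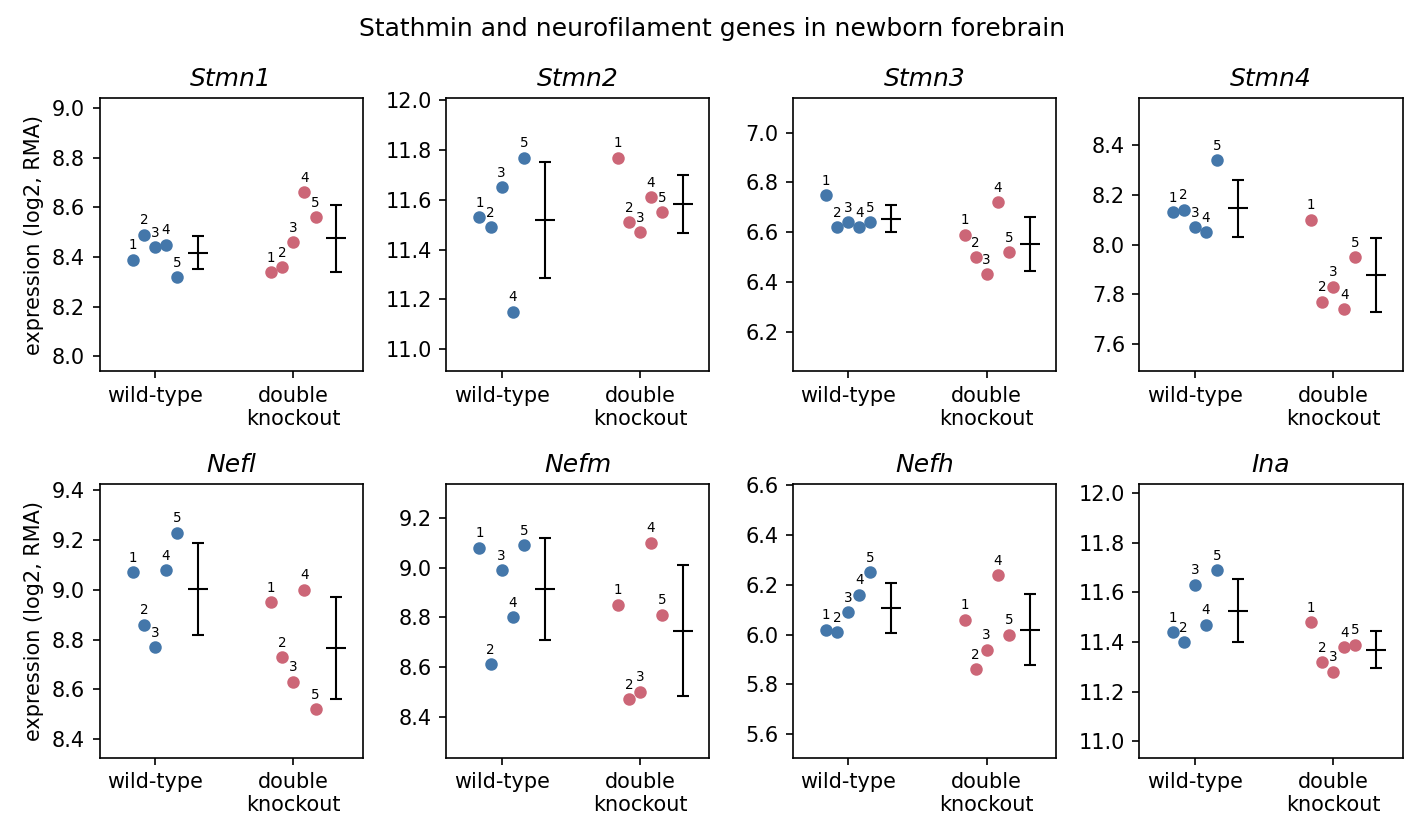
Log2 expression (y axis, each panel spanning 1.1 log2 units) of 8 genes in 5 wild-type (blue) and 5 double knockout (red) arrays, numbered by replicate; the black bar gives mean ± SD. Groups overlap in every panel, and 4 of 5 double knockout arrays lie under all wild-type arrays for Stmn3, Stmn4 and Ina. How common this is over all genes was not examined.

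Whether stathmins differed unequally was examined inside each array, by taking the log2 value of one stathmin from that of another, which removes what both genes share in an array. Such a difference says how the relation of the probe sets moved between genotypes and not which gene is more abundant. Stmn2 minus Stmn4 was 3.40, 3.35, 3.58, 3.10 and 3.43 in wild-type replicates 1 to 5. It was 3.67, 3.74, 3.64, 3.87 and 3.60 in the double knockout. Every double knockout array lay above every wild-type array, although the nearest arrays were 3.58 and 3.60. These averaged 3.37 ± 0.17 and 3.70 ± 0.11 (SD, n = 5 per genotype), 0.33 apart.

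The two-sided exact permutation p of Stmn2 minus Stmn4 was 0.00794, the smallest this design allows, and 0.0952 after Benjamini-Hochberg adjustment over the 12 pairs of members compared in this way. It therefore did not pass, and the comparison was added after the values had been seen. With each of the 10 arrays left out in turn the shift was 0.26 to 0.38, and it was lowest, 0.26, without wild-type replicate 4. Leaving an array out cannot make separate groups overlap, so these omissions do not test the separation. Groups also did not overlap in 6.13% of the 13533 other genes set against Stmn4, and in 0.717% of those set against Stmn2. Stmn1 minus Stmn4 differed by 0.33 too, with overlapping groups and an exact permutation p of 0.0397 (adjusted 0.238). Of the 6 pairs of neurofilament subunits none shifted by more than 0.15 in size, and the lowest exact permutation p among them was 0.159.

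**Figure D3:**
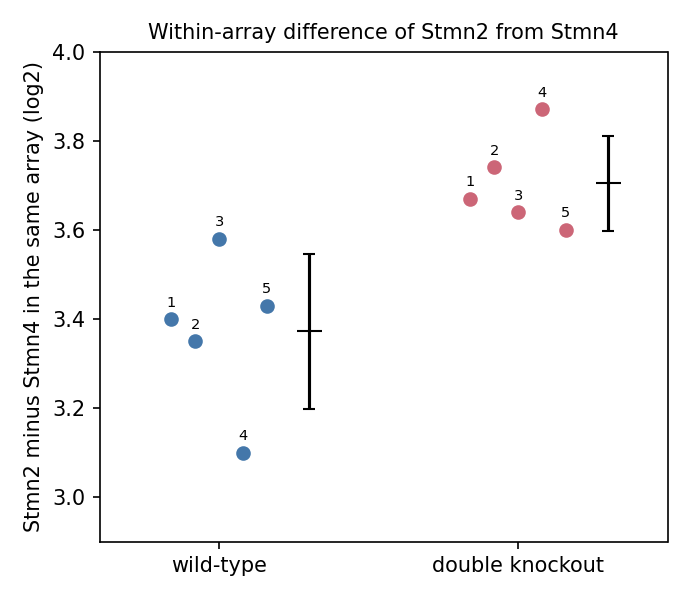
Log2 value of Stmn2 minus that of Stmn4 in the same array (y axis) in 5 wild-type and 5 double knockout arrays, numbered by replicate, with mean ± SD in black. Wild-type arrays range from 3.10 to 3.58 and double knockout arrays from 3.60 to 3.87.

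The neurofilament genes all had lower means in the double knockout, and none by a margin that passed the test. Nefl, the light subunit on which filament assembly depends, read 9.07, 8.86, 8.77, 9.08 and 9.23 in wild-type replicates 1 to 5. In the double knockout it read 8.95, 8.73, 8.63, 9.00 and 8.52. The groups overlapped: 3 double knockout arrays lay under all wild-type arrays, and replicates 1 and 4 lay inside the wild-type range. Wild-type arrays averaged 9.00 ± 0.18 and double knockout arrays 8.77 ± 0.21 (SD, n = 5 per genotype). The means lay -0.24 log2 units apart, with an SE of 0.133, a 95% interval of -0.53 to 0.06 and limma's adjusted p of 0.841. The exact permutation p was 0.103. The interval spans a 1.44-fold fall and a 1.04-fold rise of Nefl.

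Nefm, the medium subunit, is a chromosome 14 gene like Nefl and Stmn4. It read 9.08, 8.61, 8.99, 8.80 and 9.09 in wild-type and 8.85, 8.47, 8.50, 9.10 and 8.81 in the double knockout. The highest of the 10 arrays was double knockout replicate 4, and the 2 lowest were double knockout replicates 2 and 3. Its difference was -0.17 (95% interval -0.50 to 0.16, limma's adjusted p = 0.877), and it ranged from -0.26 without double knockout replicate 4 to -0.10 without double knockout replicate 2.

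Ina, the subunit of young neurons, read 11.44, 11.40, 11.63, 11.47 and 11.69 in wild-type and 11.48, 11.32, 11.28, 11.38 and 11.39 in the double knockout. Of the double knockout arrays 4 lay under all wild-type arrays, and replicate 1 lay inside their range. The difference was -0.16 (95% interval -0.37 to 0.06, limma's adjusted p = 0.850), with an exact permutation p of 0.0556. Nefh, the heavy subunit of mature axons, ranged from 6.01 to 6.25 in wild-type (median 6.09) and from 5.86 to 6.24 in the double knockout (median 6.00), with overlapping groups. Its difference of -0.09 (95% interval -0.32 to 0.15) had limma's adjusted p = 0.907, and was -0.05 without double knockout replicate 2 or wild-type replicate 5 and -0.14 without double knockout replicate 4.

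Several members had their highest or lowest value in the same animal. Wild-type replicate 5 was the highest of the 10 arrays for Stmn4, Nefl, Nefh and Ina, shared the highest value of Stmn2 with double knockout replicate 1, and was the lowest for Stmn1. Double knockout replicate 2 was the lowest for Nefm and Nefh, double knockout replicate 3 for Stmn3 and Ina, and double knockout replicate 5 for Nefl. Members did not always move the same way, since double knockout replicate 4 was the highest for Nefm and Stmn1 but the lowest for Stmn4. The mean deviation of the 8 genes from their 10-array means was 0.187 in wild-type replicate 5, -0.165 in double knockout replicate 2 and -0.162 in double knockout replicate 3. Over all genes the same mean was 0.022, -0.038 and -0.059 in these arrays. A mean over 8 genes varies more than one over all genes, and other sets of 8 genes were not examined. The contrast therefore does not show a trait of the members. Without wild-type replicate 5 the difference of Stmn4 was -0.22, and without double knockout replicate 5 that of Nefl was -0.17. The 4 neurofilament genes stayed below 0 in each of the 18 other settings tried, with a median of -0.12 to -0.22. Fits to fewer probe sets, trend and robust settings, and a block for pairs left each of these differences unchanged. Omissions share most of their arrays, so the settings are not separate tests of direction.

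**Figure D4:**
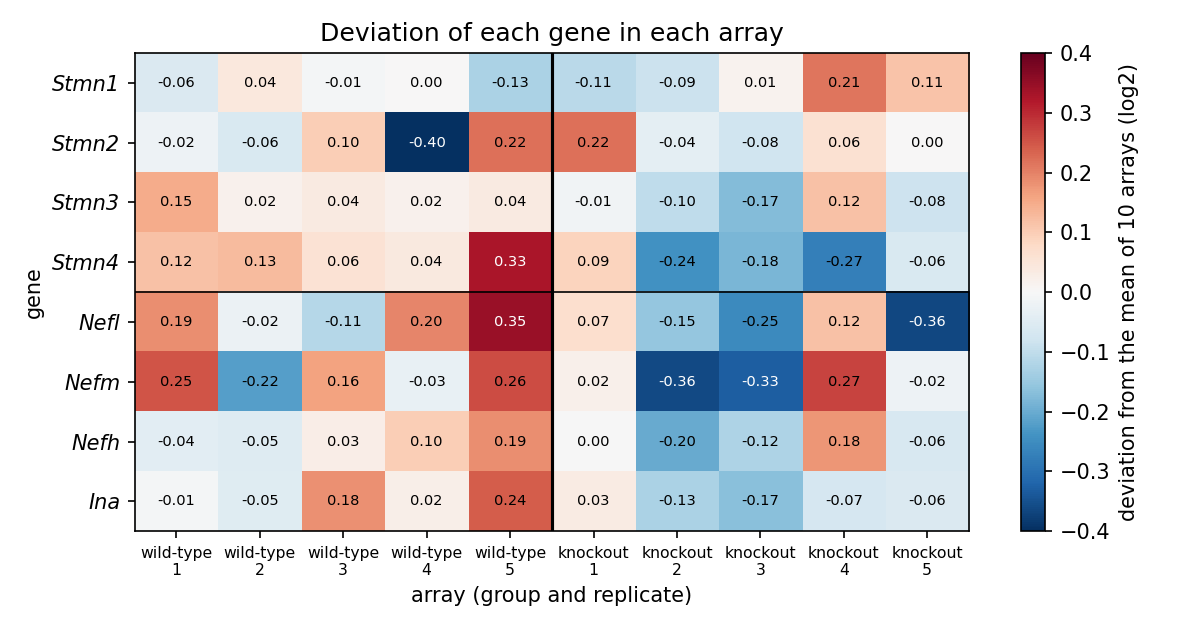
Deviation of each gene (rows) from its mean over 10 arrays on the log2 scale (colour and printed values) in each array (columns), wild-type on the left and double knockout on the right of the heavy line. Wild-type replicate 5 is raised for Stmn4, Nefl, Nefh and Ina, double knockout replicates 2 and 3 are low for the 4 neurofilament genes, and Stmn2 is at -0.40 in wild-type replicate 4.

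Neurofilament subunits were positively correlated between animals of one genotype, though no pair passed adjustment. Deviations from the group means over 10 arrays were correlated for 6 pairs of neurofilament genes and 6 pairs of stathmins, 12 in all. All 6 neurofilament pairs had a Pearson r above 0, from 0.32 for Nefl and Ina to 0.76 for Nefm and Nefh. Nefm and Nefh had a Spearman rho of 0.73, with permutation p of 0.0220 for r and 0.0318 for rho, which became 0.175 and 0.179 after Benjamini-Hochberg adjustment. Without the 2 arrays farthest from the median of Nefm, double knockout replicates 2 and 3, their r was 0.57. It was 0.40 within wild-type and 0.96 within the double knockout, with 5 arrays each and no test.

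Nefl and Nefh had r = 0.67 and rho = 0.64 (permutation p 0.0546 and 0.0710, adjusted 0.175 and 0.179), and r was 0.65 without the 2 farthest arrays. Under quantile normalization their r was 0.29 and rho 0.36, while Nefm and Nefh had r = 0.82. The other neurofilament pairs then had r = 0.40 (Nefl and Nefm), 0.26 (Nefl and Ina), 0.41 (Nefm and Ina) and 0.53 (Nefh and Ina). Before it, these were 0.54, 0.32, 0.60 and 0.58. Over all genes the median r was 0.08 with Nefl and 0.20 with Nefh. Of all genes 98.2% had a lower r with Nefl than Nefh had, and 93.1% a lower r with Nefh than Nefl had. Over the 6 neurofilament pairs, read from either gene, that share ran from 65.8% to 98.2%. Stathmin pairs lay on both sides of 0. Of their 6 pairs 3 had r above 0, from -0.53 for Stmn1 and Stmn4 to 0.63 for Stmn2 and Stmn4. The latter pair had rho = 0.47, permutation p of 0.0553 and 0.180 (adjusted 0.175 and 0.309), and r = 0.54 without the 2 farthest arrays. Stmn1 and Stmn4 had rho = -0.36, permutation p of 0.176 and 0.404 (adjusted 0.301 and 0.5395), and r = -0.09 without wild-type replicate 5 and double knockout replicate 4, so that relation rested on these arrays.

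Among 6774 named genes of above-median signal, the pattern of Stmn4 within genotypes was most like that of the interferon-induced gene Ifit2 (r = 0.93), the endoplasmic reticulum chaperone Pdia4 (r = 0.92) and Thnsl1 (r = 0.92). The pattern of Nefl was most like that of the exocyst subunit Exoc8 (r = 0.92), Alkbh7 (r = 0.91) and Wrnip1 (r = 0.88). These are the highest of many correlations over 10 arrays and are given as a description.

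Tubulins, the binding partners of stathmins, and kinases or other regulators of stathmins held 14 measured genes of 20 listed. None rose or fell by limma's adjusted p, and none had an unadjusted p under 0.05 in limma's fit. Of these, 9 were below 0 and 5 above, with a median of -0.02. Tubb6, a beta-tubulin, averaged 7.60 ± 0.22 in wild-type and 7.40 ± 0.05 in the double knockout (SD, n = 5 per genotype). Its difference was -0.19 with limma's adjusted p = 0.846 and an exact permutation p of 0.0476, and dropping wild-type replicate 4 left -0.10. Tubb3, the neuronal beta-tubulin, differed by 0.28 and ranged more widely in the double knockout, from 9.69 to 10.80, than in wild-type, from 9.79 to 10.30. That difference was 0.16 with double knockout replicate 4 left out and 0.44 with double knockout replicate 3 left out. Camk4, a calcium-dependent kinase that phosphorylates Stmn1, differed by -0.28, and dropping wild-type replicate 3 left -0.15 and double knockout replicate 2 -0.18.

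Other intermediate filament proteins and partners of filaments held 10 measured genes of 20 listed, of which 8 were below 0 and 2 above, with a median of -0.03. None was called, and none had an unadjusted p under 0.05 in limma's fit. Prph, the peripheral neuron subunit that joins neurofilaments, read 6.25, 6.36, 6.11, 6.35 and 6.31 in wild-type and 6.10, 6.02, 6.07, 6.13 and 6.06 in the double knockout. Only wild-type replicate 3 lay among the double knockout arrays. The difference was -0.20 (95% interval -0.40 to 0.003), with limma's adjusted p = 0.811 and an exact permutation p of 0.0159. Prph was named because its p in limma's fit was the lowest of this list. The share of all genes with arrays so placed, or with an exact permutation p as low, was not examined. Lmnb1, a nuclear lamin, differed by 0.15, and Plec, a linker of filaments, by -0.24 at a dim signal (means 3.63 and 3.39). The value for Plec was -0.13 with wild-type replicate 1 left out and -0.39 with double knockout replicate 1 left out.

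Growth-cone proteins other than Basp1 and Marcks held 29 measured genes of 32 listed. None was called or had an unadjusted p under 0.05 in limma's fit; 17 were below 0, 10 above and 2 at 0, with a median of -0.03. Dbn1, an actin-binding protein named after its values were seen, had an exact permutation p of 0.0476 at a difference of -0.05. That was the lowest exact permutation p among the 29, while limma's unadjusted p for Dbn1 was 0.563. How many of all genes had an exact permutation p as low was not examined. Marcksl1, a relative of Marcks that binds actin and calmodulin, differed by -0.19. Dropping wild-type replicate 4, whose value of 11.52 was the highest, left -0.04, and dropping double knockout replicate 3 left -0.13. Fscn1, which bundles actin in filopodia, differed by -0.12, or -0.07 with either wild-type replicate 3 or double knockout replicate 1 left out. Enah, which lengthens actin filaments at the growing edge, differed by 0.12, and dropping wild-type replicate 4 left 0.04. Their lowest adjusted p in limma's fit was 0.882, that of Marcksl1. Each of the 3 lists thus had a median close to the -0.03 of all genes.

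Markers of the tissue and of other cells were read in 13 lists in the same arrays, and none was called. The meningeal list was the one whose mean deviations did not overlap between genotypes. Of 6 meningeal markers 3 were measured (Col1a2, Col3a1 and Foxc1). Their mean deviation was 0.048 to 0.125 in wild-type and -0.149 to -0.012 in the double knockout, without overlap. Summed on the linear scale, these markers ran from 1086 to 1145 and from 949 to 1045. How often the average of 3 other genes separates the genotypes was not examined. The means of Stmn4 and Nefl were lower too, while those of Stmn1 and Stmn2 were slightly higher. Of 6 choroid plexus markers 3 were measured, and their mean deviation swung from -1.28 to 0.91 in wild-type and from -1.16 to 0.87 in the double knockout. Neuronal markers, 6 of 8 measured, ran from -0.106 to 0.121 and from -0.196 to 0.134, lowest in double knockout replicate 3. Of 11 midbrain and hindbrain markers 3 were measured, with deviations of -0.109 to 0.227 and -0.119 to 0.077. All 3 measured markers were lower on average in the astrocyte, meningeal and choroid plexus lists, with median differences of -0.14, -0.12 and -0.18. So were both measured markers of peripheral and sensory neurons, with a median of -0.17, and the 1 measured red blood cell marker, at -0.12. Over all genes 60.3% of differences lay below 0. The part of any of these cell types in the values of the members was not tested.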

How the data were processed

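Total RNA from 10 forebrains was measured on exon arrays. The deposited values are log2 expression values that the authors made with RMA in Affymetrix Expression Console on build mm8, per the submitters' processing notes; the sources used here give neither versions nor the summary level. The table held 65529 probe sets, of which 15419 carried 1 gene symbol in the platform annotation. Symbols were updated through RefSeq's GRCm38.p6 gene table (15071 matched), which served for names and gene order only.

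Groups were compared with lmFit and eBayes of limma 3.58.1 (R 4.3.3), group as the only term, no filter, two-sided, with Benjamini-Hochberg adjustment over all probe sets and a threshold of 0.05. Single genes also had an exact permutation test over the 252 splits into 5 and 5. How low its p ran over all genes was not examined. Correlations used 100000 shuffles of arrays within groups. Where a gene had several probe sets, the brightest was used. The fit was tested on simulated data. The number of arrays limits the precision.

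The members and lists were chosen with earlier results of these data known. Named genes are all members, the targeted genes, the 3 lowest p in each list, the 3 genes most like Stmn4 and Nefl, and cell type markers. Dbn1 was named outside this rule. The labels do not say which animals are littermates. In pairs by nearest animal number, deviations over all single-symbol probe sets correlated at -0.03 to 0.32. Among double knockout arrays, the one of nearest number correlated best with wild-type replicates 3, 4 and 5, but not with 1 and 2. These pairs were therefore used only as an alternative. P-values set a difference against the spread between these animals. In limma's fit the spread of a gene is drawn towards that of all probe sets fitted. For that reason limma's p can differ from the exact permutation p of the same gene.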

Additional observations from a re-analysis of the deposited data

Results flagged for a closer look

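Among 40 groups of 5 values examined, 3 held a value far from the other 4, judged by its gap to the nearest value over the range of the group. Chance flags about 1 in 20 groups. Stmn3 read 6.75 in wild-type replicate 1, while the rest of that group lay at 6.62 to 6.64. The probe set of uncertain place that carries the symbol Stmn1 read 3.16 in double knockout replicate 2, against 3.79 to 4.00. Elavl3 read 10.52 in wild-type replicate 3, against 11.16 to 11.39 in the others, still far above the double knockout arrays.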

How the results depend on the processing

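The 8 genes kept an adjusted p above 0.05 in limma under quantile normalization, median centring, cyclic loess, single-symbol probe sets only, brighter probe sets only, trend and robust settings, array weights, a block for pairs of nearest animal numbers, and omission of each array; their lowest adjusted p over these was 0.622. Leaving out arrays moved Stmn4 between -0.32 and -0.22 and Nefl between -0.29 and -0.17. Stmn2 ranged from -0.028 to 0.13 and turned direction only without wild-type replicate 4. The uncertain Stmn1 probe set ranged from -0.18 to 0.37 over omissions and turned to 0.014 with quantile normalization, 0.024 with cyclic loess and 0.20 with array weights. The filter on brightness removed it. The 2 targeted genes were both called, and 1 of them, Elavl3, with the block of pairs; omissions gave 1 to 2. Elavl4 was the call lost, in 7 of 10 omissions, while its difference was -1.32 with the block (limma's adjusted p = 0.0982) and -1.38 to -1.22 over omissions. Stmn4 had limma's adjusted p = 0.675 with the block. The correlation of Stmn1 and Stmn3, 0.35, was -0.49 without the 2 arrays farthest from the median of Stmn1. No listed pathway gene was called under these settings, and no correlation passed under quantile normalization. The median of all genes moved by at most -0.02 under another scaling. The cause of these changes was not tested. Alternatives for the within-array comparison were chosen after seeing the data.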
